A study of Mus musculus with 10 samples.

Results

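The 34 genes described here encode the endoplasmic reticulum (ER) chaperones and the unfolded protein response (UPR), chosen by name from a list and matched by Ensembl identifier among 46517 genes counted in mouse kidney. This list and the other lists used below were chosen with earlier results of these data known. The 34 genes fall into 3 arms: chaperones and ATF6 (14 genes), XBP1 and ER-associated degradation, ERAD (12 genes), and PERK and ATF4 (8 genes). Poly(A) RNA of whole kidney was sequenced in 10 libraries of 4 genotype labels. The labels name kidneys with the G2-APOL1 risk allele (G2, n = 2), kidneys with the G1-APOL1 risk allele (G1, n = 2), kidneys labelled wild type (single mutant) (n = 3) and kidneys labelled Control (n = 3). APOL1 is a human gene that mice lack, and the series title places its expression in podocytes, the filtering epithelial cells of the glomerulus. The labels give no promoter, transgenic line, strain, age or sex, do not explain "single mutant", and do not say whether libraries of a group came from separate animals, so the spread between them may be technical. Counts of the transgene were not used here, and the labels stand as given. Below, "risk alleles" means the mean of G2 and G1, 4 libraries in all.

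Proteins that enter the secretory pathway fold in the ER with the help of chaperones such as BiP, the product of Hspa5. When unfolded proteins build up, BiP leaves the sensors ATF6, IRE1 (Ern1) and PERK (Eif2ak3): ATF6 is cleaved to a transcription factor that raises chaperone genes, IRE1 splices the Xbp1 mRNA so that XBP1 raises chaperone and ERAD genes, and PERK phosphorylates eIF2α, which slows translation and favours that of ATF4, a factor for amino acid and stress genes. Cleavage, splicing and phosphorylation are not visible in counts per gene. In kidney this system serves cells that make or take up much membrane and secreted protein, among them podocytes and proximal tubule cells.

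Depth was 29126336 to 34815153 counts in risk-allele libraries, 30819691 to 31349832 in wild type (single mutant) libraries and 27596391 to 30593617 in Control libraries. In the same order, the 34 genes took 0.708% to 0.778%, 0.670% to 0.716% and 0.730% to 0.886% of the counts before scaling. All 34 passed the filter on low counts that left 17823 genes for testing. A gene was called at a Benjamini-Hochberg adjusted p under 0.05 in edgeR's quasi-likelihood test, and levels are CPM, counts per 1000000 counted reads, on library sizes scaled by TMM. The first principal component, 51.5% of the variance, set the 4 risk-allele libraries (-109.5 to -38.9) apart from the other 6 (41.6 to 63.3). On the second, 12.5% of the variance, the 3 libraries titled NA and a number, wild type (single mutant) replicate 3 and Control replicates 1 and 2, lay at -61.6 to -13.7 and the other 3 without a risk allele at 31.3 to 40.6. The meaning of these titles is not given, and a fit with the title form as a term was run beside the others.

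Promoters were searched in RefSeq windows of build GRCm38.p6, 250 bases before to 50 after each gene's start, which 29 of the 34 genes had (Atf6, Derl1, Hyou1, Manf and Ppp1r15b did not). The ER stress response element ERSE, CCAAT and CCACG parted by 9 unspecified bases, on either strand, through which ATF6 and XBP1 are known to act together with NF-Y, was present in 9 of the 29 (31.0%), against 39 of all 32851 windows (0.119%). These were Hspa5, Hsp90b1, Calr, Canx, Pdia6, Creld2, Dnajc3, Syvn1 and Derl3, with a pair of sites in Hsp90b1. The related ERSE-II, ATTGG and CCACG parted by 1 unspecified base, was in the windows of Dnajb11 and Herpud1 (6.90%, against 0.0365% of all windows). The element CARE, TGATGNAA on either strand, a known ATF4 and C/EBP site of amino acid genes, was in those of Asns, Trib3, Chac1 and Herpud1 (13.8%, against 3.97%). The UPR element core of XBP1, TGACGTGG, was in 0 of the 29 and in 0.676% of all windows; on the other strand it shares the letters CCACG with the end of ERSE. The 130 bases upstream of 4 genes are shown, 5′ to 3′ on the gene's strand, because Hspa5 is the central chaperone gene, Dnajc3 and Herpud1 gave the lowest p and the largest fall against Control, and Asns the largest rise: Hspa5 (chr2:34771960-34772089, plus strand), Dnajc3 (chr14:118937802-118937931, plus strand), Herpud1 (chr8:94386299-94386428, plus strand) and Asns (chr6:7693210-7693339, minus strand). Capitals mark ERSE in Hspa5 and Dnajc3, CARE on the opposite strand and then ERSE-II in Herpud1, and CARE in Asns. A match of letters is a description of the sequence and not evidence of a bound factor.
Hspa5: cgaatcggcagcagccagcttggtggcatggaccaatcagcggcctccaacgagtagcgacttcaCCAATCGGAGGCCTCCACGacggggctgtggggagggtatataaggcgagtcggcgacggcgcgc
Dnajc3: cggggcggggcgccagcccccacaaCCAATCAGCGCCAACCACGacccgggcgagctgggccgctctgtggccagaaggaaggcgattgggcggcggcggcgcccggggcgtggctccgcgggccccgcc
Herpud1: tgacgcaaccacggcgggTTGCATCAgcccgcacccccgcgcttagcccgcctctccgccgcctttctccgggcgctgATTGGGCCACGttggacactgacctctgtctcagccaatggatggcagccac
Asns: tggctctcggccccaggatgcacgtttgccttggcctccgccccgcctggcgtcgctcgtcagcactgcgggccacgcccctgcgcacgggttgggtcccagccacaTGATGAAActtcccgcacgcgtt

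With the risk alleles, 12 of the 26 chaperone and ERAD genes fell against Control kidneys, and the ATF4 targets Asns and Trib3 rose. The ERAD factors Herpud1 and Edem1 and the cochaperone Dnajc3 were among those that kept their calls against Control under every setting run. With library totals in place of TMM scaling 6 of the 26 fell and Xbp1 rose. Of the 34 genes, 12 fell, 2 rose and 20 were not called, which is 41.2% called against a background of 37.3% of all 17823 genes. By direction, 35.3% of the 34 fell against Control, beside 18% of all genes, and 5.88% rose, beside 19.3%. Against wild type (single mutant) the falls were not in excess: 17.6% of the 34 were called lower, beside 19.3% of all genes. Wild type (single mutant) kidneys themselves had point estimates below Control for 32 of the 34, none of them called. The median log2 fold change against Control over the 34 was -0.32, beside 0.00 over all genes tested. In 14 of the 34 the 4 risk-allele libraries all lay below the 3 Control libraries (17.7% of all genes did so), and in 2 they all lay above (20.7% of all genes). Scaling moved these values: with library totals in place of TMM the median of all genes shifted to 0.28, the median of the 34 to -0.05, and the calls to 6 lower and 4 higher. Over all genes 1600 were then called lower and 6037 higher, against 3212 and 3441 under TMM. Still, 29 of the 34 lay below the median of all genes under either scaling. The TMM factors were 1.06 to 1.17 in risk-allele libraries and 0.880 to 0.953 in the others. The title term left 11 of the 12 lower calls (Syvn1 was lost), added Pdia4, P4hb and Ppp1r15b, and ended both higher calls. DESeq2 kept all 14 calls and added Hsp90b1, Calr, Pdia4, Ern1 and Ppp1r15a as lower. Leaving out 1 library gave 8 lower calls without Control replicate 3, 16 without Control replicate 2, and 9 to 11 otherwise.

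**Figure D1:**
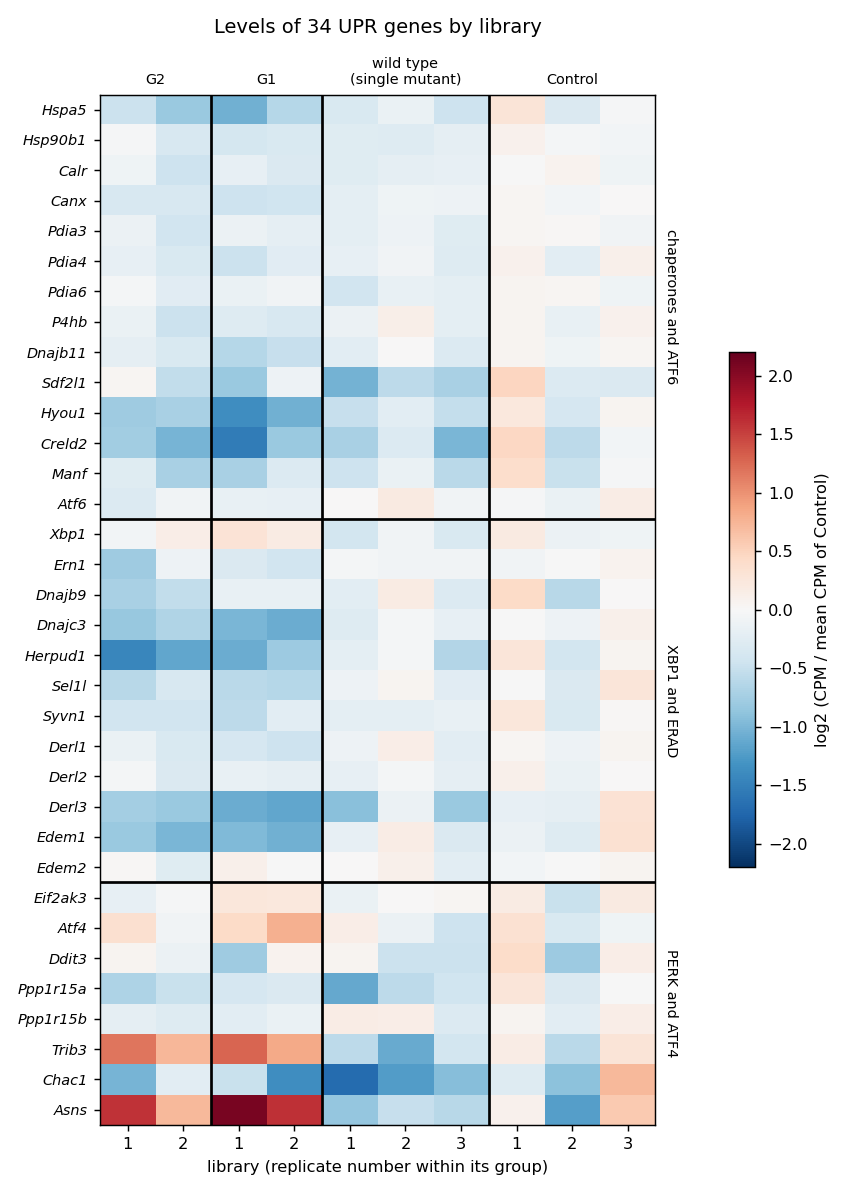
Each row is 1 of the 34 genes by arm and each column 1 library; colour is log2 of the library's CPM over the mean CPM of the 3 Control libraries. With TMM scaling the columns of G2 and G1 are blue for most chaperone and ERAD genes, of which 7 had fold changes above 0 with library totals, and red for Trib3 and Asns, and the Control column of replicate 1 is redder than that of replicate 2 in many chaperone rows.

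In the chaperone and ATF6 arm, 5 of the 14 genes fell with the risk alleles and none of the 14 rose relative to Control, with a median log2 fold change of -0.32 (-0.05 with library totals); over all genes 18% fell and 19.3% rose. With library totals 2 of the 14 fell, against 8.98% of all genes. Hspa5, which encodes BiP, stood at 780 and 612 CPM in G2 kidneys, 520 and 702 CPM in G1 kidneys, 851, 971 and 786 CPM in wild type (single mutant) kidneys and 1309, 868 and 1060 CPM in Control kidneys. Every risk-allele library lay below every library without a risk allele, the closest being 780 CPM in a G2 kidney and 786 CPM in a wild type (single mutant) kidney. The log2 fold change was -0.73 ± 0.17 (SE) against Control (adjusted p = 0.0111) and -0.41 ± 0.17 against wild type (single mutant), which was not called (adjusted p = 0.0885). With library totals the value against Control was -0.46 and no longer called (adjusted p = 0.0523).

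Hyou1, the large ER Hsp70-type protein that exchanges nucleotide on BiP, stood at 126 and 132 CPM in G2 kidneys, 84.1 and 104 CPM in G1 kidneys, 153, 184 and 150 CPM in wild type (single mutant) kidneys and 256, 168 and 228 CPM in Control kidneys. The 4 risk-allele libraries lay below all 6 others. Hyou1 fell against Control (log2 -0.98 ± 0.15, adjusted p = 0.00134) and against wild type (single mutant) (-0.56 ± 0.15, adjusted p = 0.0168). The call against wild type (single mutant) was lost with library totals (-0.27, adjusted p = 0.182), without G1 replicate 1 (adjusted p = 0.0588) and without wild type (single mutant) replicate 2 (adjusted p = 0.0671).

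Creld2, a small secreted ER stress protein with disulfide isomerase activity, stood at 56.0 and 47.0 CPM in G2 kidneys, 32.7 and 53.9 CPM in G1 kidneys, 58.3, 77.4 and 47.3 CPM in wild type (single mutant) kidneys and 130, 64.2 and 91.6 CPM in Control kidneys. Risk-allele and wild type (single mutant) kidneys overlapped, and the Control kidneys were higher than all risk-allele kidneys but far apart among themselves. The fall against Control was -1.01 ± 0.27 on the log2 scale (adjusted p = 0.017), and the value against wild type (single mutant) was -0.37 ± 0.27 (adjusted p = 0.304). The call against Control was lost without Control replicate 1 (adjusted p = 0.0703), G1 replicate 1 (adjusted p = 0.05595) or G2 replicate 2 (adjusted p = 0.054).

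Canx, the membrane-bound lectin chaperone calnexin, stood at 449 and 450 CPM in G2 kidneys, 417 and 424 CPM in G1 kidneys, 492, 533 and 529 CPM in wild type (single mutant) kidneys and 587, 550 and 578 CPM in Control kidneys. The groups were tight and the risk-allele libraries lay below all 6 others. Its fall was small, -0.39 ± 0.08 against Control (adjusted p = 0.00469) and -0.25 ± 0.08 against wild type (single mutant) (adjusted p = 0.0307). With library totals neither was called, and the value against wild type (single mutant) changed sign to 0.03. The call against wild type (single mutant) was also lost on leaving out any of the 7 libraries compared, with adjusted p up to 0.085.

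Dnajb11, the soluble J protein ERdj3 that hands clients to BiP, stood at 143 and 130 CPM in G2 kidneys, 106 and 114 CPM in G1 kidneys, 139, 165 and 133 CPM in wild type (single mutant) kidneys and 169, 153 and 168 CPM in Control kidneys. The risk-allele libraries lay below the Control libraries but overlapped those of wild type (single mutant). Its log2 fold change against Control was -0.42 ± 0.10 (adjusted p = 0.00979), a call lost with library totals (-0.14, adjusted p = 0.208), and stood at -0.25 ± 0.10 against wild type (single mutant) (adjusted p = 0.0678).

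The other 9 genes of the arm were not called in either comparison with the risk alleles by edgeR's quasi-likelihood test under TMM. DESeq2 called Hsp90b1 (adjusted p = 0.0218), Calr (adjusted p = 0.048) and Pdia4 (adjusted p = 0.0385) lower against Control. The title term so called Pdia4 (adjusted p = 0.0353) and P4hb (adjusted p = 0.0495). They are Hsp90b1 (the ER Hsp90, GRP94), Calr (calreticulin, the soluble partner of calnexin), the disulfide isomerases Pdia3, Pdia4, Pdia6 and P4hb, Sdf2l1 (a partner of Dnajb11), Manf (a secreted ER stress protein) and the sensor Atf6. Against Control their log2 fold changes ran from -0.48 ± 0.21 for Manf to -0.13 ± 0.10 for Pdia6, all below 0, but with library totals those of Hsp90b1, Calr, Pdia3, Pdia6 and Atf6 lay above 0. Against wild type (single mutant) they ran from -0.25 ± 0.13 for P4hb to 0.45 ± 0.26 for Sdf2l1. With library totals Pdia3, Pdia6 and Sdf2l1 were called higher there, as were 34.9% of all genes. Under TMM the 95% interval against Control was -0.51 to -0.00147 for Calr and -0.44 to 0.02 for Pdia3. These intervals leave out the choice of scaling. With library totals the values, 0.0129 for Calr and 0.0558 for Pdia3, lay outside them. The sensor Atf6 stood at 46.4 and 54.2 CPM in G2 kidneys, 51.0 and 50.5 CPM in G1 kidneys, 57.0, 65.2 and 53.7 CPM in wild type (single mutant) kidneys and 56.0, 51.2 and 63.7 CPM in Control kidneys. Those ranges overlapped, at -0.17 ± 0.11 against Control (adjusted p = 0.231) and -0.21 ± 0.11 against wild type (single mutant) (adjusted p = 0.138, called lower there with the title term).

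In the XBP1 and ERAD arm, 7 of 12 genes fell and 0 rose against Control, with a median log2 fold change of -0.40 (-0.13 with library totals), beside 18% of all genes lower and 19.3% higher. With library totals 4 of the 12 fell and Xbp1 rose, against 8.98% and 33.9% of all genes. The factor and the sensor at the head of the arm were not among them. Xbp1 stood at 224 and 256 CPM in G2 kidneys, 287 and 264 CPM in G1 kidneys, 175, 220 and 185 CPM in wild type (single mutant) kidneys and 268, 213 and 217 CPM in Control kidneys. Its total transcript was thus within the Control range or above it, at 0.15 ± 0.12 on the log2 scale against Control (adjusted p = 0.377, and 0.0228 with library totals), and it rose against wild type (single mutant) (0.41 ± 0.12, adjusted p = 0.0248). That rise was lost without G1 replicate 1 or 2, G2 replicate 2, or wild type (single mutant) replicate 1 or 3, with adjusted p of 0.0523 to 0.0968. Ern1, which encodes IRE1α, stood at 17.0 and 27.1 CPM in G2 kidneys, 23.5 and 21.8 CPM in G1 kidneys, 28.6, 27.8 and 27.7 CPM in wild type (single mutant) kidneys and 27.9, 29.1 and 31.1 CPM in Control kidneys. Here all 4 risk-allele libraries were lower than the other 6, but the value of -0.39 ± 0.14 against Control was not called (adjusted p = 0.0566). DESeq2 (adjusted p = 0.0309), RLE size factors (adjusted p = 0.0451) and the exclusion of G2 replicate 2 (-0.57, adjusted p = 0.00225) made it a call. Nor was the value of -0.33 ± 0.14 against wild type (single mutant) called (adjusted p = 0.0973).

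Herpud1, an ER membrane protein that organises the ERAD complex, had the largest fall of the 34 genes against Control. It stood at 245 and 300 CPM in G2 kidneys, 309 and 383 CPM in G1 kidneys, 571, 646 and 426 CPM in wild type (single mutant) kidneys and 794, 499 and 693 CPM in Control kidneys. No risk-allele library reached the lowest of the 6 others. The log2 fold change was -1.11 ± 0.19 against Control (adjusted p = 0.00251) and -0.83 ± 0.19 against wild type (single mutant) (adjusted p = 0.00878). Both calls held with library totals and without any single library, at -1.28 to -0.96 against Control and -0.99 to -0.70 against wild type (single mutant) over the libraries left out. Its promoter, shown above, holds both an ERSE-II and a CARE.

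Dnajc3, the ER-resident J protein also known as P58IPK, stood at 143 and 161 CPM in G2 kidneys, 127 and 119 CPM in G1 kidneys, 208, 247 and 225 CPM in wild type (single mutant) kidneys and 251, 235 and 276 CPM in Control kidneys. The highest risk-allele library lay well under the lowest of the 6 others. The log2 fold change was -0.90 ± 0.10 against Control (adjusted p = 0.000234) and -0.73 ± 0.10 against wild type (single mutant) (adjusted p = 0.000571), the lowest adjusted p of the 34 genes in each comparison. Edem1, which delivers misfolded glycoproteins for degradation, stood at 80.6 and 70.3 CPM in G2 kidneys, 71.8 and 67.5 CPM in G1 kidneys, 124, 158 and 113 CPM in wild type (single mutant) kidneys and 129, 116 and 179 CPM in Control kidneys. Again no library with a risk allele reached any library without one, and Edem1 fell, at -0.96 ± 0.17 on the log2 scale against Control (adjusted p = 0.00238) and -0.86 ± 0.17 against wild type (single mutant) (adjusted p = 0.00356). The falls of both genes kept their calls with library totals, with the title term and without any single library.

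The retrotranslocation complex itself was less uniform. Sel1l, the scaffold of the HRD1 ubiquitin ligase, stood at 93.5 and 111 CPM in G2 kidneys, 94.2 and 92.7 CPM in G1 kidneys, 132, 148 and 120 CPM in wild type (single mutant) kidneys and 141, 115 and 171 CPM in Control kidneys. The risk-allele libraries were lower than all others, with a gap of only a few CPM to Control replicate 2. It fell against Control (-0.54 ± 0.14, adjusted p = 0.0154) and wild type (single mutant) (-0.45 ± 0.14, adjusted p = 0.0319). Neither call held with library totals, and the call against Control was lost without G1 replicate 2, G2 replicate 1 or Control replicate 3 (adjusted p of 0.0507 to 0.0564). Against wild type (single mutant) 5 of the single-library exclusions ended it, with adjusted p up to 0.113.

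Syvn1, which encodes HRD1, stood at 60.1 CPM in both G2 kidneys, 54.1 and 69.3 CPM in G1 kidneys, 69.7, 69.4 and 72.7 CPM in wild type (single mutant) kidneys and 96.3, 64.2 and 82.1 CPM in Control kidneys. Derl1, a derlin of the retrotranslocation channel, stood at 142 and 124 CPM in G2 kidneys, 120 and 114 CPM in G1 kidneys, 144, 173 and 132 CPM in wild type (single mutant) kidneys and 161, 144 and 163 CPM in Control kidneys. For Syvn1 the risk-allele and Control ranges overlapped, and for Derl1 the highest risk-allele library lay just under the lowest Control library. Both passed the threshold against Control narrowly, Syvn1 at -0.41 ± 0.14 (adjusted p = 0.0435) and Derl1 at -0.32 ± 0.11 (adjusted p = 0.043), and lost it with library totals, without a filter on low counts and in 8 and 7 of the 10 single-library exclusions, with adjusted p up to 0.163 for Syvn1 and 0.142 for Derl1. The call of Syvn1 was also lost with the title term (adjusted p = 0.111). Derl3, a derlin of low level in kidney, stood at 2.44 and 2.32 CPM in G2 kidneys, 1.91 and 1.86 CPM in G1 kidneys, 2.16, 3.76 and 2.32 CPM in wild type (single mutant) kidneys and 3.61, 3.59 and 5.09 CPM in Control kidneys, from 63 to 128 counts per library. It fell against Control (-0.95 ± 0.24, adjusted p = 0.0141), without Control replicate 3 at -0.76 and not called (adjusted p = 0.0594), and was not called against wild type (single mutant) (-0.37 ± 0.24, adjusted p = 0.252). The remaining genes of the arm, Dnajb9 (the J protein ERdj4), Derl2 and Edem2, were not called in either comparison under TMM. They were at -0.39 ± 0.22, -0.18 ± 0.10 and -0.04 ± 0.11 against Control, where library totals turned Derl2 and Edem2 to values above 0. Against wild type (single mutant) library totals called Derl2 and Edem2 higher.

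**Figure D2:**
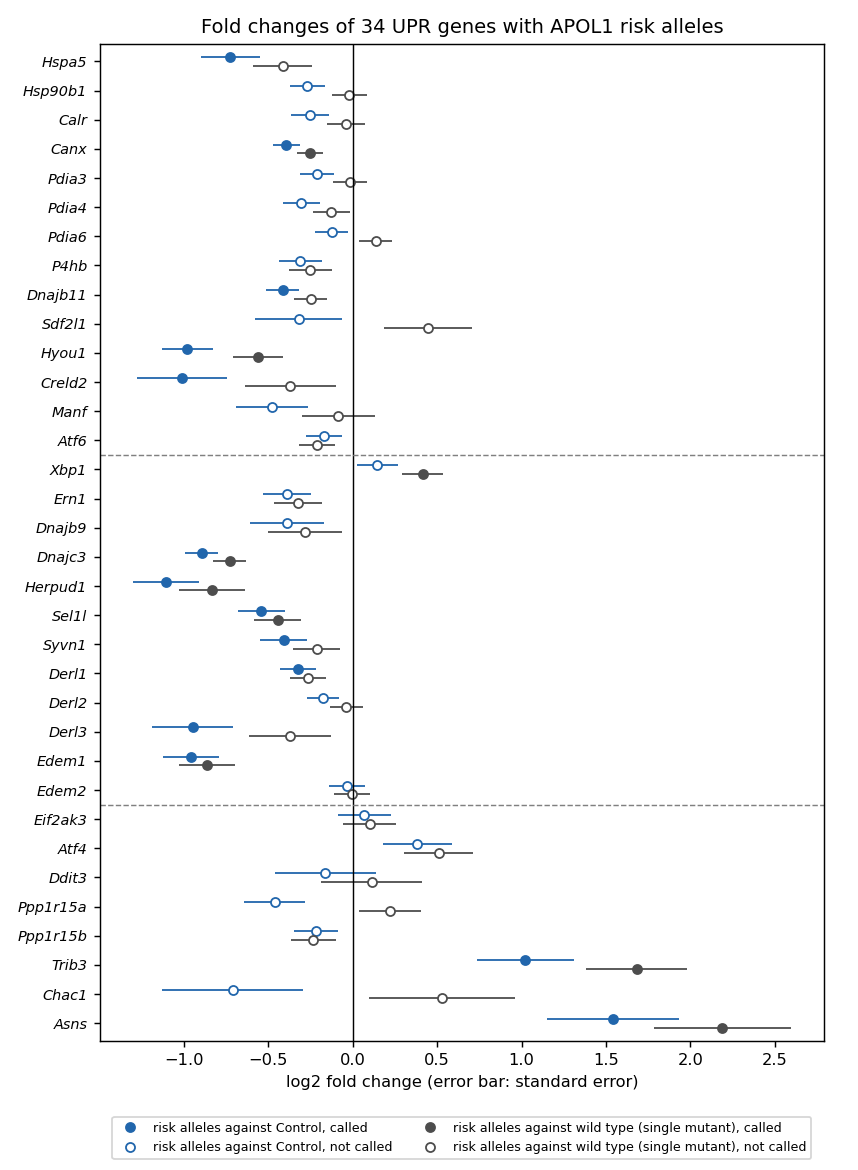
Points are log2 fold changes of the risk alleles against Control (blue) and against wild type (single mutant) (grey) for the 34 genes, with standard errors; filled points were called by edgeR's quasi-likelihood test. Herpud1, Dnajc3 and Edem1 lie left of 0 in both comparisons and Trib3 and Asns right of 0, and most grey points lie right of their blue partners; with library totals the median of all genes against Control moves right to 0.28, and 9 of the uncalled blue points cross 0.

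In the PERK and ATF4 arm 2 of 8 genes rose and 0 fell against Control, beside 19.3% and 18% of all genes, with a median of -0.05 on the log2 scale (0.23 with library totals). The members were divided: Asns, Trib3, Atf4 and Eif2ak3 lay above 0 and the other 4 below it. Asns, asparagine synthetase and a textbook ATF4 target, stood at 14.6 and 7.95 CPM in G2 kidneys, 20.7 and 14.7 CPM in G1 kidneys, 2.70, 3.40 and 3.17 CPM in wild type (single mutant) kidneys and 5.21, 2.10 and 7.24 CPM in Control kidneys. All 4 risk-allele libraries exceeded the other 6, though G2 replicate 2 and Control replicate 3 lay close together. The rise was 2.91-fold against Control (log2 1.54 ± 0.39, adjusted p = 0.0144) and 4.56-fold against wild type (single mutant) (log2 2.19 ± 0.41, adjusted p = 0.0029). With the title form as a term the value against Control was 1.27 ± 0.45 and not called (adjusted p = 0.0567), and that against wild type (single mutant) 2.01 and called.

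Trib3, a pseudokinase that restrains ATF4 signalling, was a low-level transcript of 20 to 146 counts per library. It stood at 3.57 and 2.62 CPM in G2 kidneys, 3.83 and 2.82 CPM in G1 kidneys, 1.06, 0.731 and 1.19 CPM in wild type (single mutant) kidneys and 1.77, 1.05 and 1.91 CPM in Control kidneys. The groups with and without a risk allele did not overlap. The rise was 2.03-fold against Control (log2 1.02 ± 0.29, adjusted p = 0.0219) and 3.21-fold against wild type (single mutant) (log2 1.68 ± 0.30, adjusted p = 0.00231). Against Control the call was lost with the title term (1.004 ± 0.37, adjusted p = 0.0628) and without G1 replicate 1, G2 replicate 1 or Control replicate 2 (adjusted p of 0.0615 to 0.0695). Its window, like that of Asns, holds a CARE.

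The other genes of the arm, including its sensor and both best-known factors, were not called in either comparison under TMM. Eif2ak3, which encodes PERK, stood at 42.8 and 47.3 CPM in G2 kidneys, 57.7 and 56.8 CPM in G1 kidneys, 43.9, 48.5 and 49.9 CPM in wild type (single mutant) kidneys and 55.1, 34.3 and 55.9 CPM in Control kidneys. Its value against Control was 0.07 ± 0.16 (adjusted p = 0.762), with a 95% interval of -0.29 to 0.43. Atf4 stood at 152 and 114 CPM in G2 kidneys, 161 and 206 CPM in G1 kidneys, 133, 109 and 87.1 CPM in wild type (single mutant) kidneys and 152, 95.0 and 113 CPM in Control kidneys. G1 kidneys were the highest and G2 kidneys spanned the Control range, at 0.38 ± 0.21 against Control (adjusted p = 0.174, and 0.0297 with library totals) and 0.51 ± 0.21 against wild type (single mutant) (adjusted p = 0.0783). With library totals Atf4 was called higher in both comparisons. Ddit3, the factor CHOP that is known for its part in cell death under prolonged stress, stood at 25.7 and 22.4 CPM in G2 kidneys, 14.3 and 25.8 CPM in G1 kidneys, 25.7, 17.7 and 17.6 CPM in wild type (single mutant) kidneys and 32.4, 14.1 and 27.2 CPM in Control kidneys. Those libraries overlapped fully, at -0.16 ± 0.30 against Control (adjusted p = 0.7, with library totals above 0) and 0.11 ± 0.30 against wild type (single mutant), and the 95% interval against Control was -0.84 to 0.51. The phosphatase subunits Ppp1r15a (GADD34) and Ppp1r15b, which reverse eIF2α phosphorylation, were at -0.46 ± 0.18 and -0.22 ± 0.13 against Control (adjusted p = 0.0737 and 0.225), where Ppp1r15b lay above 0 with library totals. DESeq2 (adjusted p = 0.0468) and a fit of only the groups compared (adjusted p = 0.0443) called Ppp1r15a lower against Control, and the title term called Ppp1r15b lower (-0.44, adjusted p = 0.0196). Chac1, which breaks down glutathione and is known as an ATF4 and CHOP target, was at 1.16 to 2.54 CPM in risk-allele kidneys, 0.924 to 1.57 CPM in wild type (single mutant) kidneys and 1.59 to 4.89 CPM in Control kidneys. Its sign differed between the comparisons, -0.71 ± 0.42 against Control (adjusted p = 0.208) and 0.53 ± 0.43 against wild type (single mutant) (adjusted p = 0.361), and neither was called although it holds a CARE as Asns and Trib3 do.

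**Figure D3:**
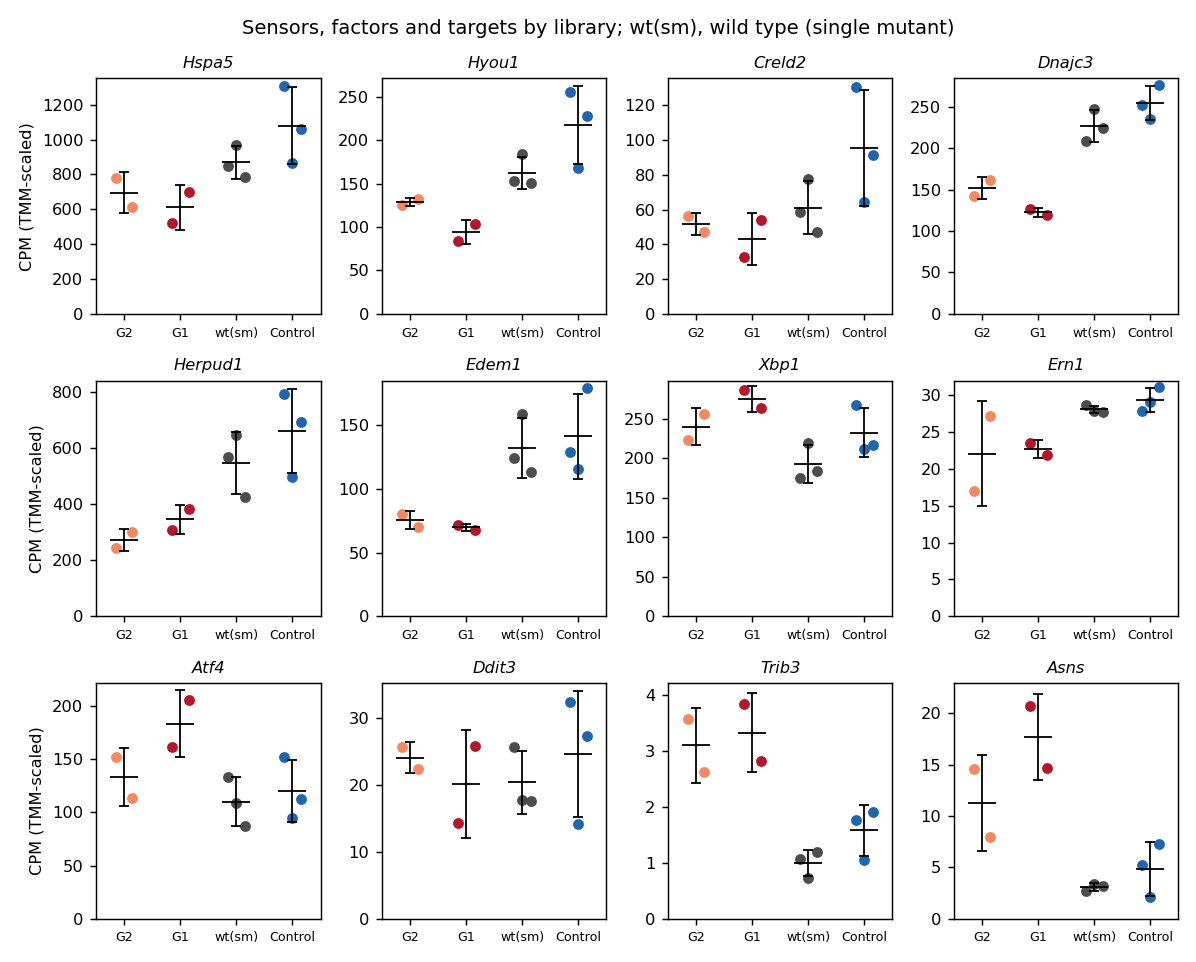
CPM of 12 genes in each library by group (points), with the group mean and SD (bars); each vertical axis starts at 0. Dnajc3, Herpud1 and Edem1 are lower in the 4 G2 and G1 libraries than in the 6 others, Trib3 and Asns higher, and Atf4, Ddit3 and Xbp1 overlap between risk-allele and Control kidneys.

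Read by promoter letters, 8 of the 11 genes with an ERSE or ERSE-II fell against Control and 0 rose, with a median of -0.42 on the log2 scale, where 18% of all genes fell and 19.3% rose. Of the 18 genes with a window and neither element, 2 fell and 2 rose, with a median of -0.26. With library totals 4 of the 11 were called lower, against 8.98% of all genes, and their median was -0.14. Against wild type (single mutant) 3 of the 11 were called lower, with a median of -0.25, where 19.3% of all genes were called lower. Of the 18 genes with neither element, library totals called Edem1 lower and Xbp1, Atf4, Trib3 and Asns higher against Control. Against wild type (single mutant) under TMM, Sel1l and Edem1 of the 18 fell and Xbp1, Trib3 and Asns rose. The 4 genes with a CARE went different ways against Control, Asns and Trib3 higher, Herpud1 lower and Chac1 not called. These are counts over genes chosen by name, and the difference between the sets was not tested.

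Against wild type (single mutant), 6 of the 34 genes fell (Canx, Hyou1, Dnajc3, Herpud1, Sel1l and Edem1), 3 rose (Xbp1, Trib3 and Asns) and 25 were not called. That is 26.5% called against a background of 39.9%, with 17.6% lower against 19.3% of all genes and 8.82% higher against 20.6%, so in number the calls did not exceed those of the genes at large. This comparison shares its risk-allele libraries with the one against Control. The median over the 34 was -0.17, and with library totals it lay above 0 at 0.12, where 9 genes were called higher and 3 lower. The 6 higher calls gained were those of Pdia3, Pdia6, Sdf2l1, Derl2, Edem2 and Atf4. Of all genes 34.9% were called higher and 9.59% lower with library totals. By arm the median was -0.17 for the chaperones (0.12 with library totals), -0.30 for XBP1 and ERAD (-0.01) and 0.36 for PERK and ATF4 (0.65).

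Wild type (single mutant) kidneys were compared with Control kidneys as the groups without a risk allele. None of the 34 genes, and 0 of all 17823 (0.0%), was called by edgeR's quasi-likelihood test. At an unadjusted p under 0.05 there were 724 genes (4.06%), among them 5 of the 34, and DESeq2 called 14 genes, none among the 34. Point estimates were still below 0 for 32 of the 34 genes, with a median of -0.20 under TMM and -0.21 with library totals, and in 8 of them all wild type (single mutant) libraries lay below all Control libraries (3.73% of all genes did so). Those 5 genes were Sdf2l1 (-0.77 ± 0.28), Pdia6 (-0.26 ± 0.10), Hyou1 (-0.42 ± 0.16), Ppp1r15a (-0.68 ± 0.20) and Chac1 (-1.24 ± 0.46). Sdf2l1 stood at 13.8, 19.0 and 17.2 CPM in wild type (single mutant) kidneys, against 39.4, 23.0 and 22.7 CPM in Control kidneys. The Control libraries differed among themselves in this set: Control replicate 1 was the highest of the 3 in 18 of the 34 genes and in 10 of the 14 of the chaperone arm, and Control replicate 2 was the highest in 1 of the 34.

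The alleles were also set against Control singly, with 2 libraries each and the same Control libraries in both comparisons. For G2, 5 of the 34 genes fell (Canx, Hyou1, Dnajc3, Herpud1 and Edem1) and 0 rose, 14.7% called against a background of 21.6% (8.86% lower and 12.7% higher). For G1, 12 fell (Hspa5, Hsp90b1, Canx, Dnajb11, Hyou1, Creld2, Dnajc3, Herpud1, Sel1l, Derl1, Derl3 and Edem1) and 2 rose (Trib3 and Asns), 41.2% against 37.3% (17.9% lower and 19.5% higher). Herpud1 was at -1.28 ± 0.24 in G2 and -0.94 ± 0.24 in G1, and Dnajc3 at -0.74 ± 0.12 in G2 and -1.05 ± 0.12 in G1. Asns was at 1.22 ± 0.44 in G2 (adjusted p = 0.0835) and 1.87 ± 0.44 in G1 (adjusted p = 0.0103), and Trib3 at 0.97 ± 0.33 in G2 (adjusted p = 0.0676) and 1.08 ± 0.33 in G1 (adjusted p = 0.0309). With library totals both were called higher for G2, as were 23.7% of all genes. DESeq2 called Asns higher for G2 and added 4 lower calls. Asns was also called higher for G2 without Control replicate 3. These counts rested on single libraries: without G1 replicate 1, 3 genes were called lower and 0 higher for G1, and for G2 the genes called lower were 1 without G2 replicate 1, 3 without G2 replicate 2, Control replicate 1 or Control replicate 3, and 9 without Control replicate 2. The title term ended the calls of Hsp90b1 (adjusted p = 0.129) and Trib3 (adjusted p = 0.0706) for G1 and of Canx (adjusted p = 0.056) for G2. With library totals 8 of the 12 falls for G1 were no longer called, Herpud1 among them (-0.64, adjusted p = 0.0583). For G2 those of Canx and Hyou1 were not called either.

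Tested directly, G2 against G1, none of the 34 genes was called (adjusted p of 0.174 to 0.981), where 6.72% of all genes were (3.84% higher and 2.88% lower in G2). DESeq2 also called 0 of the 34, and 3 passed an unadjusted p under 0.05, as 24.5% of all genes did: Dnajc3 (0.31 ± 0.13), Dnajb11 (0.31 ± 0.13) and Hyou1 (0.46 ± 0.20), all higher in G2. Estimates ran from -0.65 ± 0.49 for Asns to 0.46 for Hyou1. The 95% intervals still allowed sizeable differences, -1.75 to 0.45 for Asns, -0.33 to 0.71 for Hspa5 and -0.92 to 0.24 for Herpud1.

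Per kilobase of exon, the order of levels in Control kidneys ran from Calr (378 CPM per kb), P4hb (329 CPM per kb), Herpud1 (284 CPM per kb), Hspa5 (255 CPM per kb) and Pdia3 (253 CPM per kb) down to Ern1 (3.59 CPM per kb), Derl3 (2.06 CPM per kb), Chac1 (1.82 CPM per kb), Asns (1.77 CPM per kb) and Trib3 (0.742 CPM per kb). Chaperones of the lumen and Herpud1 headed the list, and IRE1, Derl3 and the ATF4 targets closed it. Of the 33 pairs of neighbours in this order, 25 differed by no more than the larger of their SDs over the Control libraries, Herpud1 from both P4hb and Hspa5 among them. The 8 resolved steps were those from Calr to P4hb, Pdia3 to Hsp90b1, Hsp90b1 to Canx, Canx to Pdia6, Ppp1r15b to Sel1l, Atf6 to Ern1, Ern1 to Derl3 and Asns to Trib3. In risk-allele kidneys Herpud1 was at 117 CPM per kb in G2 (rank 6) and 148 CPM per kb in G1 (rank 4), and Asns was at 4.12 CPM per kb in G2 and 6.47 CPM per kb in G1.

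**Figure D4:**
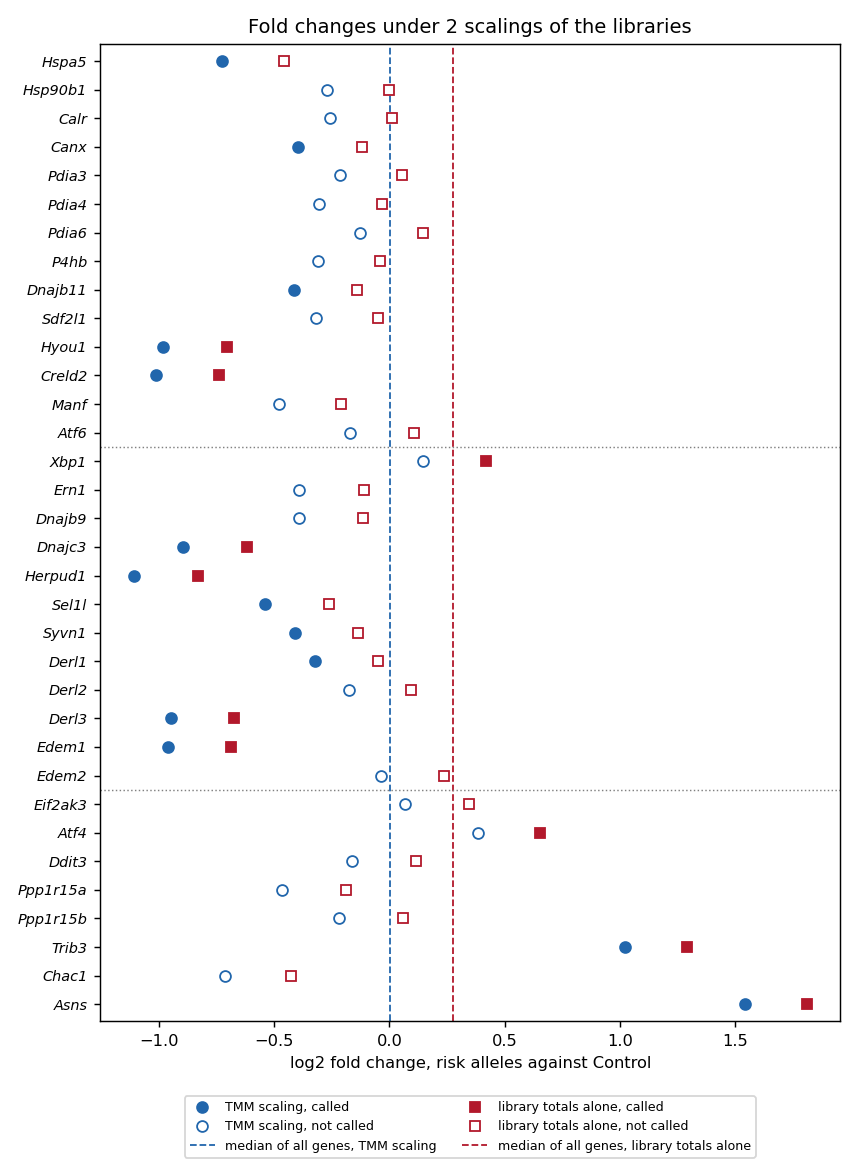
Log2 fold changes of the risk alleles against Control for the 34 genes under TMM scaling (blue circles) and with library totals alone (red squares), with the median of all genes tested as dashed lines; filled marks were called. The marks shift about as far as the medians, to 0.28 with library totals; 29 of the 34 genes lie left of their own line under each scaling, and 9 genes cross 0.

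Because whole kidney was measured, fewer cells of a type and less RNA per cell cannot be told apart. Marker genes of other cells moved with the risk alleles. All 10 proximal tubule markers fell against Control, with a summed level of 3676 to 8013 CPM in risk-allele kidneys, 16606 to 18647 CPM in wild type (single mutant) kidneys and 16843 to 17487 CPM in Control kidneys. All 7 markers of injured tubule rose, at 4602 to 29452 CPM in risk-allele kidneys, 725 to 1284 CPM in wild type (single mutant) kidneys and 650 to 1158 CPM in Control kidneys. All 7 macrophage markers rose as well, at 578 to 856 CPM in risk-allele kidneys, 119 to 146 CPM in wild type (single mutant) kidneys and 132 to 163 CPM in Control kidneys. Of 7 fibroblast markers 4 rose against Control, at 575 to 1788 CPM in risk-allele kidneys, 286 to 344 CPM in wild type (single mutant) kidneys and 247 to 395 CPM in Control kidneys. These lists therefore moved together with the falls of chaperone and ERAD genes and the rises of Asns and Trib3. Of 7 podocyte markers none was called against Control, at 196 to 294 CPM in risk-allele kidneys, 188 to 504 CPM in wild type (single mutant) kidneys and 189 to 363 CPM in Control kidneys. Of the antibody-secreting and B cell markers, whose cells hold much ER, 11 of 12 were tested, 2 rose and 1 fell, at 83.4 to 112 CPM in risk-allele kidneys, 29.4 to 170 CPM in wild type (single mutant) kidneys and 64.7 to 175 CPM in Control kidneys. Against Control, 1 of 4 thick ascending limb markers rose and 2 fell, 1 of 4 collecting duct markers fell, and 1 of 5 liver markers rose and 1 fell. All marker counts stand beside 18% of all genes lower and 19.3% higher against Control. Marker counts with library totals are not given. No marker of these lists was at 0 in all libraries. The part of these changes in the values of the 34 genes was not tested.

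Other genes of the same systems were taken from 6 further lists, whose counts stand beside 18% of all genes lower and 19.3% higher against Control (8.98% and 33.9% with library totals). Among other ERAD genes, 11 of 22 fell and 1 rose against Control, with a median log2 fold change of -0.26 that lay above 0 (0.02) with library totals, where 2 fell and 5 rose. Ngly1, which strips glycans from retrotranslocated proteins, stood at 39.8 and 39.7 CPM in G2 kidneys and 42.7 and 40.2 CPM in G1 kidneys, against 64.2, 72.0 and 65.7 CPM in wild type (single mutant) kidneys and 65.3, 64.7 and 64.5 CPM in Control kidneys. Its log2 fold change against Control was -0.68 ± 0.07 (adjusted p = 0.000207). The ER membrane ubiquitin ligases Rnf5 and March6 also fell (-0.48 ± 0.08 and -0.71 ± 0.14), and Ube2j2, a ubiquitin-conjugating enzyme, rose (0.29 ± 0.09). The call of Rnf5 was lost with library totals (-0.20, adjusted p = 0.0528). That of Ube2j2 was lost without a filter (adjusted p = 0.0883), with the title term (adjusted p = 0.115) and without G1 replicate 1 or 2, G2 replicate 1 or Control replicate 2 or 3 (adjusted p up to 0.0923).

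Of the other ER folding genes, 5 of the 30 tested rose and 7 fell (18 and 3 with library totals). The collagen chaperones Serpinh1 (1.36 ± 0.21) and Fkbp10 (1.49 ± 0.17) rose, and the ER oxidases Ero1lb (-0.84 ± 0.11) and Ero1l (-0.53 ± 0.09) and the BiP exchange factor Sil1 (-0.61 ± 0.11) fell, Ero1l not with library totals (-0.25, adjusted p = 0.0825). Serpinh1 stood at 423 and 276 CPM in G2 kidneys and 205 and 271 CPM in G1 kidneys, against 155, 123 and 134 CPM in wild type (single mutant) kidneys and 144, 89.1 and 105 CPM in Control kidneys. Fibroblast markers moved with it, as given above, and their part was not tested. Of 16 genes of the translocon and signal peptidase, 1 rose (Spcs3, 0.34 ± 0.09) and 3 fell, Sec62 the most (-0.68 ± 0.09), against 9 and 1 with library totals. The call of Spcs3 was lost with the title term (adjusted p = 0.0735) and without G1 replicate 1 or 2, G2 replicate 1 or Control replicate 2 (adjusted p up to 0.0662).

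Of 21 further sensors and regulators, 4 rose and 6 fell (9 and 3 with library totals), so in number the rises were near the share of all genes. Kdelr3, a receptor that returns chaperones to the ER, rose the most (2.27 ± 0.18), to 10.4 and 7.60 CPM in G2 kidneys and 8.34 and 9.25 CPM in G1 kidneys, against 1.95, 1.90 and 2.21 CPM in wild type (single mutant) kidneys and 1.74, 1.74 and 2.07 CPM in Control kidneys. Traf2, an adaptor of IRE1, rose (1.05 ± 0.11), and the ER membrane protein Tmbim6 (-0.78 ± 0.12) and the ER-bound factor Creb3l2 (-0.85 ± 0.14) fell. Among the eIF2α kinases other than PERK, Eif2ak2 (PKR) rose (0.70 ± 0.14) and Eif2ak1 (HRI) fell (-0.57 ± 0.07).

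Among 37 other ATF4 and integrated stress response genes, 10 rose and 6 fell against Control (16 and 2 with library totals). Against wild type (single mutant) 16 rose and 4 fell under TMM, beside 20.6% of all genes higher and 19.3% lower. Counts in that comparison are not given for the other further lists, nor with library totals for this one. The rises with the lowest p were those of Stc2, a secreted glycoprotein (2.38 ± 0.21), Mthfd2, a mitochondrial folate enzyme (1.35 ± 0.17), and Slc7a5, an amino acid transporter (0.93 ± 0.14). Mthfd2 stood at 14.3 and 12.7 CPM in G2 kidneys and 14.8 and 14.99 CPM in G1 kidneys, against 3.76, 5.0 and 4.70 CPM in wild type (single mutant) kidneys and 6.59, 4.67 and 5.33 CPM in Control kidneys. The list did not move as one, since Shmt2, the mitochondrial serine enzyme (-1.61 ± 0.17), Sesn2 (-0.79 ± 0.18) and Gpt2 (-0.60 ± 0.14) fell. With library totals Sesn2 (-0.51, adjusted p = 0.0588) and Gpt2 (-0.33, adjusted p = 0.0816) were not called. Of 25 cytosolic and mitochondrial chaperones, 2 rose and 7 fell (6 and 3 with library totals): the small heat shock proteins Hspb1 (1.73 ± 0.37) and Hspb8 (1.29 ± 0.35) rose, and the mitochondrial chaperones Hspa9 (-0.87 ± 0.11), Hspd1 (-0.96 ± 0.12) and Trap1 (-0.86 ± 0.11) fell. The call of Hspb8 was lost without G1 replicate 2 or Control replicate 3 (adjusted p up to 0.0545).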

How the data were processed

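Per the labels, poly(A) RNA of kidney was made into Illumina TruSeq libraries and read single-end at 100 bases; the design text and the extraction protocol name different Qiagen kits. The submitters' processing notes list CASAVA 1.8.2, FastQC, STAR 2.4.1d, Trim Galore, HTSeq 0.6.1 and build GRCm38. Annotation release and strandedness were not given in the sources used here. What the authors deposited is 1 table per library of raw read counts for each gene, with no normalization. Where genes overlap and strand is unknown, their reads cannot be told apart: such partners cover up to 11.4% of a member's exons (Ppp1r15b; 10.3% of Hsp90b1 and 8.05% of Eif2ak3).

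Symbols came from GENCODE M21 (46005 of 46517 IDs matched, 512 did not, 118 share a symbol), promoters from RefSeq. Groups follow the genotype label; replicates are numbered by accession, which pairs no libraries. No pair of libraries agreed within sampling noise (lowest chi-square per gene 28.6 over genes with at least 100 counts). The test was edgeR 4.0.16 (R 4.3.3): TMM, filterByExpr with a minimum count of 10, 1 quasi-likelihood fit of group means on all 10 libraries (common biological coefficient of variation 0.249), Benjamini-Hochberg adjustment over 17823 genes in each of 6 comparisons. The fit was also run on simulated counts. These had a smaller spread than the libraries and few changed genes, so they do not test the scaling or the precision here. Fold changes are log2 with standard errors from the quasi-likelihood F; levels are CPM with SD. Precision is set by 27596391 to 34815153 counts per library, at which the floor of 3 counts equals 0.0862 to 0.109 CPM; this covers counting error only. Alternatives were DESeq2 1.42.0, RLE size factors, library totals, no filter, only the groups compared, each library left out, and, chosen after seeing the data, the title form as a term. Tables used Python 3.11.15 with pandas 2.3.3, figures matplotlib 3.10.9. The members and all lists were chosen with earlier results of these data known. All 34 members may be named; of the 6 further lists, up to 3 called genes with the lowest p in each direction against Control are.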

Additional observations from a re-analysis of the deposited data

Results flagged for a closer look

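No group holds 4 or more libraries, so no library was singled out by its distance from the rest of its group. None of the 34 genes differed between the alleles past the threshold. Of the genes from the further lists with the lowest p against Control, 5 did by edgeR's quasi-likelihood test of G2 against G1 itself. The rest of those lists are not counted here, and 6.72% of all genes were called in that comparison. The signal peptidase subunit Spcs3 was at -0.63 ± 0.12 on the log2 scale (adjusted p = 0.0225), from 91.5 and 74.8 CPM in G2 kidneys and 132 and 126 CPM in G1 kidneys. The ubiquitin ligase Rnf5 was at 0.50 ± 0.10 (adjusted p = 0.0279), from 56.9 and 54.7 CPM in G2 kidneys and 39.3 and 39.5 CPM in G1 kidneys. The eIF2α kinase Eif2ak2 was at -0.88 ± 0.19 (adjusted p = 0.0305), from 16.7 and 20.6 CPM in G2 kidneys and 33.99 and 34.7 CPM in G1 kidneys. Shmt2 was at 0.89 ± 0.22 (adjusted p = 0.04996), from 183 and 131 CPM in G2 kidneys and 96.2 and 73.7 CPM in G1 kidneys. Gpt2 was at -0.76 ± 0.19 (adjusted p = 0.0466), from 47.3 and 36.5 CPM in G2 kidneys and 76.1 and 65.5 CPM in G1 kidneys. With 2 libraries per allele, all 5 calls were lost without at least 3 of the 4 risk-allele libraries in turn, the lone library then being assumed to vary like the other groups. Libraries outside the comparison mattered too. The call of Shmt2 was lost without wild type (single mutant) replicate 1 or any Control library (adjusted p up to 0.0775). That of Gpt2 was lost without replicate 1 or 3 of either of these groups (adjusted p up to 0.0659). With only the groups compared, the calls of Spcs3 (adjusted p = 0.0763), Rnf5 (adjusted p = 0.0721), Shmt2 (adjusted p = 0.0937) and Gpt2 (adjusted p = 0.0724) were lost. So were those of Shmt2 with RLE size factors (adjusted p = 0.0628) and Rnf5 without a filter (adjusted p = 0.0757).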

How the results depend on the processing

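No paired analysis was possible because the labels carry no replicate numbers and nothing ties libraries across groups. With library totals alone, members called against Control were 4 higher and 6 lower for the risk alleles, 5 and 4 for G1 and 2 and 3 for G2, and against wild type (single mutant) 9 and 3. In the same order, the shares of all genes there were 33.9% and 8.98%, 31.9% and 9.92%, 23.7% and 4.08%, and 34.9% and 9.59%. The log2 fold changes against Control that changed sign there were Hsp90b1 0.0002, Calr 0.0129, Pdia3 0.0558, Pdia6 0.145, Atf6 0.105, Derl2 0.0946, Edem2 0.235, Ddit3 0.1145 and Ppp1r15b 0.0574, and against wild type (single mutant) Canx 0.0335. Over single libraries left out, Ddit3 ranged from -0.442 to 0.0873 (above 0 without G1 replicate 1 or Control replicate 1), Edem2 from -0.12 to 0.0443 (above 0 without G2 replicate 2) and Eif2ak3 from -0.128 to 0.183 (below 0 without Control replicate 2). DESeq2 called 14 genes for wild type (single mutant) against Control, 2499 for G2 against G1, and 1 member higher and 9 lower for G2. Without a filter 4 genes were called for wild type (single mutant) against Control. With only the groups compared, G2 had 2510 genes and 3 members lower. With the title term, members called higher were 0 for the risk alleles and 1 for G1 against Control, 10 were lower against wild type (single mutant), 1988 genes were called for G2 against G1 and 1 for wild type (single mutant) against Control. Over single libraries left out, members called higher against Control were 1 to 2 for the risk alleles, 0 to 2 for G1 and 0 to 1 for G2; members lower were 3 to 13 for G1, 1 to 9 for G2, and 3 to 8 against wild type (single mutant). Genes called were 3397 to 6912 for G1, 1970 to 4116 for G2, 22 to 1441 for G2 against G1, and 0 to 2 for wild type (single mutant) against Control. The causes were not tested. Fold changes and calls therefore depend on the scaling, and not for small effects alone. With library totals the calls of Herpud1 (-0.64, adjusted p = 0.0583) and Creld2 (-0.83, adjusted p = 0.0674) for G1 were lost.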
